A study of Mus musculus with 8 samples.

Results

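The genes described here are the monocyte-attracting chemokines Ccl2 (ENSMUSG00000035385), Ccl7 (ENSMUSG00000035373), Ccl8 (ENSMUSG00000009185) and Ccl12 (ENSMUSG00000035352) and their receptor Ccr2 (ENSMUSG00000049103). They were taken by symbol from the count matrices, which makes 5 of 32286 gene features, and each of the 5 had UMIs in all 4 libraries. A UMI (unique molecular identifier) stands for 1 captured RNA molecule, and levels are given in CPM, a gene's UMIs summed over a group of cells and scaled by the total UMIs of those cells. The question was which cell classes of a mouse lung adenocarcinoma carry the ligands, which carry the receptor, and whether either differs between tumour groups. No group difference of these genes passed the test, whereas their levels differed widely between cell classes.

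The tumours came from KPC mice, in which lentivirus given through the trachea starts lung adenocarcinoma. In the mA1 group, tumour cells carried CRISPR activation (a Cas9-based activator of transcription) with dead guide RNAs against Malat1, a long noncoding RNA, from the start of tumour formation. The Con group was the same but for dead guide RNAs against Tomato, a reporter sequence. The largest tumours were taken at 16 weeks, 4 per group, as 2 libraries per group, and 2 hashtags, antibodies to CD45 and MHC class I with a barcode, marked the cells within each. Each pair of library and hashtag is therefore taken as 1 tumour. The sources used here do not give whether the hashtags stand for separate animals, so p-values measure the spread between these samples, which may be technical. The activation acts in tumour cells, so the immune cells described here did not carry the guides by design.

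After filtering, 7364 and 3782 cells were used in the mA1 libraries and 7085 and 5622 in the Con libraries, 23853 in all, with 1652 to 4364 tagged cells per tumour and 14684330 to 38828000 UMIs per tumour. Con library 2 stood apart, with Xist at 1276 CPM in both of its tumours and Ddx3y at 0, whereas the other 6 tumours had Xist at no more than 1.55 and Ddx3y between 41.4 and 61.0. Malat1, the targeted gene, took 2.48% and 4.09% of the UMIs of epithelial-like cells in the mA1 libraries, against 3.80% and 2.59% in the Con libraries. These values overlap, so mA1 and Con are used below as names of the labelled groups. Among the used cells, 337 barcodes occurred in more than 1 library. Clusters were named from fixed marker sets, with the 5 genes left out of the clustering, so that their levels did not decide the classes.

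Ccl2, Ccl7, Ccl8 and Ccl12 are secreted CC chemokines that lie in a gene cluster, and Ccr2 is a G protein-coupled receptor that they activate. Ccr2 is known for letting classical monocytes leave the bone marrow and enter inflamed tissue, where they can become macrophages and dendritic cells. Mouse Ccl8 is also known as a ligand of Ccr8, and Ccl7 also binds Ccr1 and Ccr3. In GRCm38 (mm10), all 4 ligand genes lie on chromosome 11, Ccl2 from 82035577 to 82037452, Ccl7 from 82045712 to 82047525, Ccl12 from 82101845 to 82103399 and Ccl8 from 82115185 to 82116799. Ccr2 lies on chromosome 9 from 124101918 to 124109140, and all 5 genes are annotated as protein coding.

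The promoters of Ccl8 and Ccl12 are shown because, among the ligands, only these had an entry in the promoter table. They are the 250 bases before each gene's start on the plus strand, from RefSeq (GRCm38.p6), at chr11:82114935-82115184 for Ccl8 and chr11:82101595-82101844 for Ccl12. Capitals mark 2 runs of letters that both promoters hold, chosen after the sequences were seen.

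Ccl8: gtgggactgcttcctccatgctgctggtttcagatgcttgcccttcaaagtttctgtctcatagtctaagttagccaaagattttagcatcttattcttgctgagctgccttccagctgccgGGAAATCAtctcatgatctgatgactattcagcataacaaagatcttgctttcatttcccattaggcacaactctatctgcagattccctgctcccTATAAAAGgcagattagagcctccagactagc

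Ccl12: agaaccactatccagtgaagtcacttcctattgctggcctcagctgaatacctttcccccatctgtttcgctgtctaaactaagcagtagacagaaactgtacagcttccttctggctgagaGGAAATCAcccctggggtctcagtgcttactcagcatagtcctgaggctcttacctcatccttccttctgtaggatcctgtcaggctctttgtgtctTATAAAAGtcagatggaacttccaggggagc

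The run TATAAAAG, a TATA-type box, begins 32 bases before the start of Ccl8 and 31 bases before that of Ccl12. The run GGAAATCA begins 128 bases before the start in both. Read on both strands, TATAAAAG occurs in 1.51% and GGAAATCA in 0.983% of 32851 RefSeq promoters, each taken over the same 250 bases, and 3 promoters hold both runs on the gene's strand. The 2 runs do not overlap. At the same distance from the start, 90 positions (36%) of the pair carry the same base. Of the 5 genes, 3 had an entry in the promoter table, and Ccl2 and Ccl7 had none.

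Most ligand UMIs lay in C1q macrophage-like cells, the 999 cells (4.19% of all) led by C1qa, C1qb, Apoe and C1qc. The 8 fixed markers of C1q macrophages summed to 13750 to 18070 CPM in mA1 tumours and 14310 to 17700 in Con tumours. All 8 were detected, but so were all 8 fibroblast markers, so detection alone does not set the class apart. The fibroblast markers summed to 15.6 to 45.8 CPM in mA1 tumours and 12.5 to 35.2 in Con tumours. These phagocytes are named for the complement C1q subunits that they make. They held 93.0 ± 4.64% of the Ccl12 UMIs and 91.0 ± 6.498% of the Ccl8 UMIs (mean ± SD, n = 4 libraries here and below unless stated). For Ccl7 their share was 50.2 ± 24.1%, and for Ccl2 it was 40.7 ± 9.48%. The whole data hold 4434 UMIs of Ccl2, 784 of Ccl7, 827 of Ccl8, 2086 of Ccl12 and 11718 of Ccr2. Shares depend on how many cells of each class were captured.

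Ccl12, a mouse monocyte chemoattractant, reached 130 and 167 CPM in C1q macrophage-like cells of the mA1 libraries, against 265 and 100 in the Con libraries. Con library 1 was the highest and Con library 2 the lowest, so the groups overlapped. No other class with at least 20 cells in each library averaged above 2.41, and its range did not overlap that of the C1q macrophage-like cells. Thinned shares, here and below, leave out cells with fewer than 1000 UMIs. That kept 981 of 999 C1q macrophage-like and 2327 of 2380 B cell-like cells. After thinning each kept cell to 1000 UMIs, 12.8% of C1q macrophage-like cells had a Ccl12 UMI (35.5% of all unthinned). Of the B cell-like cells it was 0% (0.042% unthinned, 1 cell of 2380). Median depths were 9778 UMIs per C1q macrophage-like cell and 2317 per B cell-like cell before thinning.

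Ccl8 gave 114 and 14.8 CPM in C1q macrophage-like cells of the mA1 libraries, against 70.6 and 62.5 in the Con libraries. The mA1 libraries thus held both the highest and the lowest value. Its share of cells was small, 4.28% after thinning and 9.41% before, with 94 Ccl8-positive cells in the class. In monocyte-like cells and in dendritic cluster 16 no Ccl8 UMI was counted in any library. Outside the class, proliferating cluster 9 of mA1 library 1 held 42 Ccl8 UMIs in 29 cells, of which 27 carried no hashtag and whose median depth was 1080 UMIs. Tagged cells of that cluster and library had a median of 18705 UMIs, and no other library had a Ccl8 UMI in the cluster. Among classes with at least 20 cells in each library, unnamed cluster 18 had the second-highest mean (8.43 ± 16.86 CPM). That level came from 1 cell, and its library range overlapped that of the C1q macrophage-like cells.

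Ccl7 was at 26.6 and 33.8 CPM in C1q macrophage-like cells of the mA1 libraries, against 61.8 and 24.9 in the Con libraries. Its source varied the most: these cells held 33.3% and 48.3% of Ccl7 UMIs in the mA1 libraries, against 84.8% and 34.3% in the Con libraries. Macrophage cluster 10 held 19.04% and dendritic cluster 16 held 17.4% of Ccl7 UMIs on average. Single cells weighed heavily there, since 1 dendritic cell of mA1 library 1 carried all 47 Ccl7 UMIs of its class in that library. Another dendritic cell carried 30 of the 44 in Con library 2.

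Ccl2, the chief monocyte chemoattractant of this family, was the ligand spread over the most classes. In C1q macrophage-like cells it had 160 and 68.2 CPM in the mA1 libraries, against 198 and 192 in the Con libraries. Both Con values lay above both mA1 values, but the groups overlapped when taken by tumour, as given below. Monocyte-like cells followed at 86.0 and 78.0 in the mA1 libraries, against 94.4 and 117 in the Con libraries. Macrophage cluster 10, led by Inhba, Hilpda, Mmp12 and Arg1, was next at 65.6 and 8.77 in the mA1 libraries, against 55.4 and 46.1 in the Con libraries. The library ranges of C1q macrophage-like and monocyte-like cells overlapped, whereas those of monocyte-like cells and macrophage cluster 10 did not.

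Lower in the order of Ccl2 levels came dendritic cluster 16 (29.5 ± 25.2 CPM), proliferating cluster 9 (21.97 ± 9.83), mature DC-like cells (12.98 ± 9.80), macrophage cluster 7 (11.8 ± 6.88) and alveolar macrophage-like cells (6.34 ± 2.46). Ranges of neighbours in this order overlapped. Because some of these classes are large or deep, they still held Ccl2: macrophage cluster 10 had 20.4 ± 12.6% of its UMIs, proliferating cluster 9 had 11.2% and alveolar macrophage-like cells had 7.93%. Proliferating cluster 9 also carried all 8 alveolar macrophage markers, at 3903 to 4042 CPM in sum in mA1 tumours and 3597 to 4130 in Con tumours. Epithelial-like cells, which include the tumour cells, had a Ccl2 UMI in 0.0887% of thinned cells, against 0.129% of B cell-like cells, a level read as background. Fibroblast-like cells were few (112). In Con library 1, 39 of their 40 Ccl2 UMIs lay in 1 cell.

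**Figure D1:**
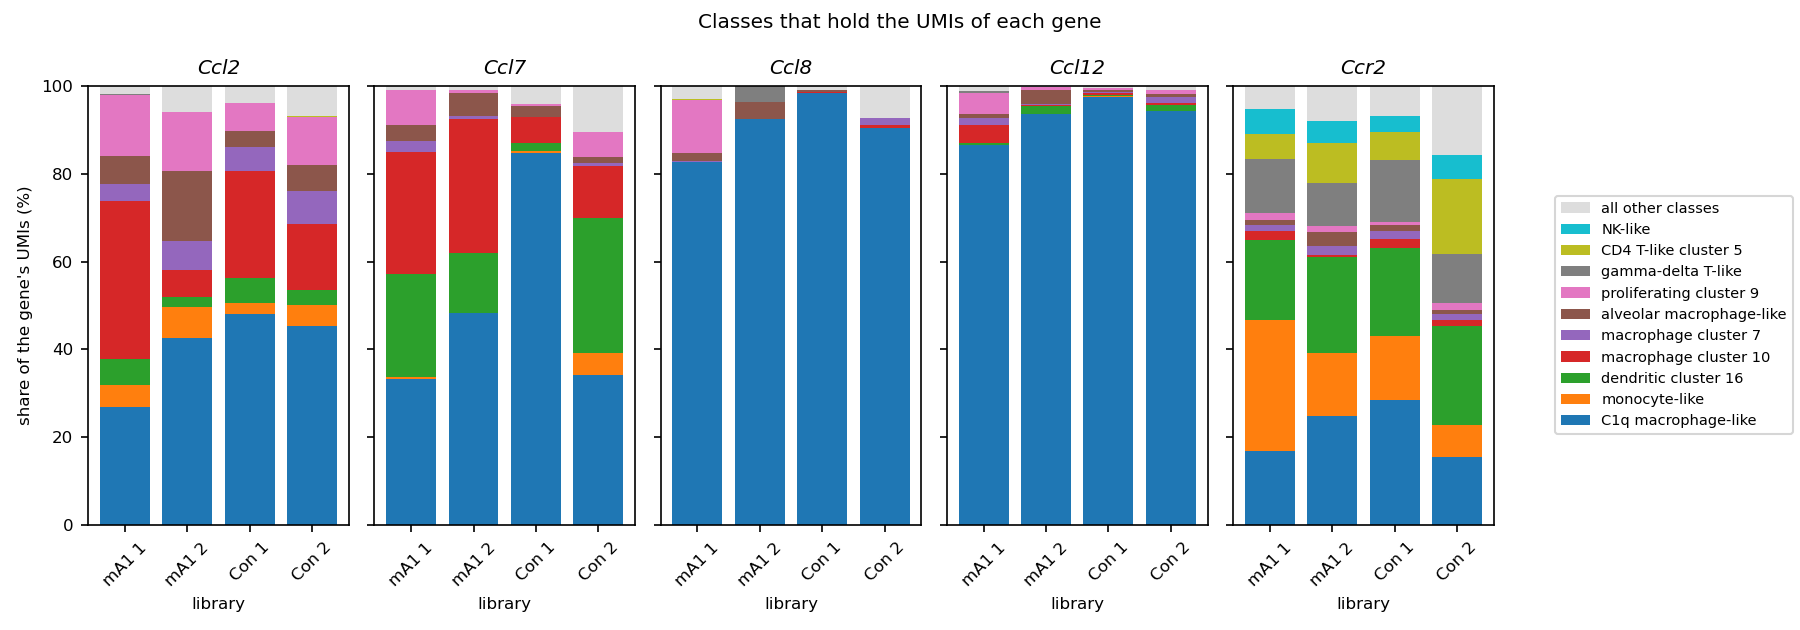
Share of each gene's UMIs (y axis, percent) held by each cell class, as 1 stacked bar per library (x axis). Ccl8 and Ccl12 lie almost wholly in C1q macrophage-like cells (91.0% and 93.0% on average), while Ccl2 and Ccr2 are spread over several classes.

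Ccr2 was highest in monocyte-like cells, the 363 cells (1.52% of all) led by Ifitm3, Plac8 and F13a1. All 8 classical monocyte markers were detected there, at 5790 to 8068 CPM in sum in mA1 tumours and 6769 to 8204 in Con tumours. All 8 neutrophil and all 8 nonclassical monocyte markers were detected too, so detection alone does not set the class apart. Of the 8 C1q macrophage markers, 6 were detected, and Folr2 and Pf4 were at 0. The C1q macrophage markers summed to 367 to 667 CPM in mA1 tumours and 517 to 593 in Con tumours. Ccr2 stood at 1167 and 891 CPM in monocyte-like cells of the mA1 libraries, against 975 and 729 in the Con libraries. Each of these values exceeded every library value of any other class with at least 20 cells in each library. After thinning, 51.3% of monocyte-like cells had a Ccr2 UMI (81.3% unthinned), against 0.043% of B cell-like cells.

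Gamma-delta T-like cells, led by Trdc, Cxcr6, Cd163l1 and Il17a, came second for Ccr2. They had 521 and 452 CPM in the mA1 libraries, against 528 and 441 in the Con libraries. Dendritic cluster 16, which holds markers of conventional dendritic cells of both types, followed with 342 and 252 in the mA1 libraries, against 336 and 307 in the Con libraries. Gamma-delta T-like cells were above dendritic cluster 16 in 8 of 8 tumours (exact sign-flip permutation, two-sided p = 0.0078, the smallest that 8 tumours allow; adjusted p = 0.375 over 48 pairs of neighbouring classes). None of the 48 pairs passed after adjustment. A single pair at the smallest possible p could not pass, so this does not show that neighbouring classes are alike. Neighbours were set by mean levels in these same cells, so the p-values are no independent test of the order. In some of the 48 pairs, both classes lacked UMIs of the gene. The library ranges of gamma-delta T-like cells and dendritic cluster 16 did not overlap.

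C1q macrophage-like cells had Ccr2 at 236 and 223 CPM in the mA1 libraries, against 213 and 268 in the Con libraries. Dendritic cluster 16 lay above them in 7 of 8 tumours (exact sign-flip permutation p = 0.0234, adjusted p = 0.5625). Here too the order was set by the levels that were tested. Lymphoid cluster 22 (182 ± 81.2), CD4 T-like cluster 5 (180 ± 44.8) and NK-like cells (139 ± 42.5) came next, with overlapping ranges. CD8 T-like cluster 11 averaged 86.7 ± 24.1, and mature DC-like cells averaged 21.2, with ranges that did not overlap. Ccr2 was near 0 in epithelial-like, B cell-like and naive-type T-like cells (CD4 T-like cluster 6 and CD8 T-like cluster 14). Both T-like clusters had Lef1 and Dapl1 among their leading genes. The CD4 name of cluster 6 is uncertain, since it scored higher for the CD8 T set (3.59) than for the CD4 T set (2.01). Basophil or mast cell-like cells, with fewer than 20 cells in a library, had 301 ± 115.

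By number of UMIs the receptor was shared out: C1q macrophage-like cells held 21.5 ± 6.28% of Ccr2 UMIs, dendritic cluster 16 held 20.6 ± 1.89%, monocyte-like cells 16.5 ± 9.45% and gamma-delta T-like cells 11.8 ± 1.81%. CD4 T-like cluster 5 held 9.62% and NK-like cells 4.92%. The monocyte-like share ranged from 29.7% in mA1 library 1 to 7.35% in Con library 2. After thinning, 36.8% of gamma-delta T-like, 25.1% of dendritic cluster 16, 17.1% of C1q macrophage-like and 14.3% of CD4 T-like cluster 5 cells had a Ccr2 UMI. These 5 classes, monocyte-like cells first, stood in the same order by thinned share as by level.

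**Figure D2:**
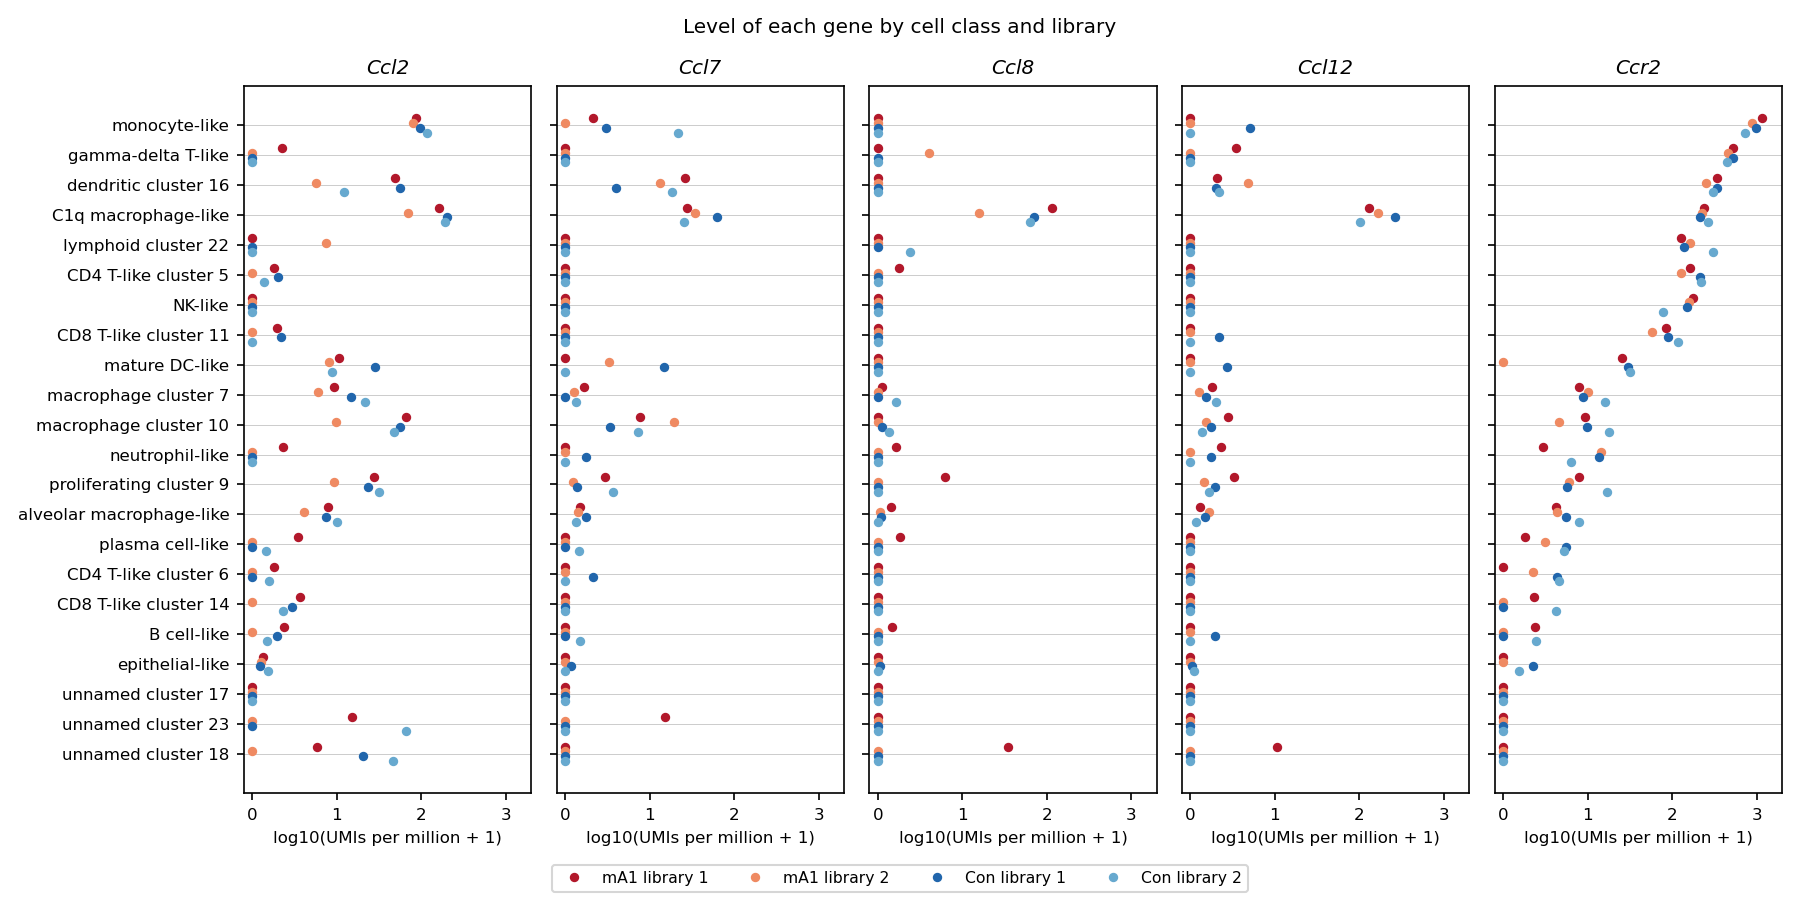
Level of each gene per cell class (rows, ordered by the mean Ccr2 level) on a log10 scale of CPM plus 1, with 1 point per library and libraries without a UMI at 0. Ccl12 stands high in C1q macrophage-like cells in all 4 libraries, and Ccl8 ranges there from 14.8 to 114 CPM. Ccr2 falls stepwise over monocyte-like, gamma-delta T-like, dendritic and C1q macrophage-like cells.

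Other receptors of these ligands had other top classes. Ccr1, a receptor of Ccl7, was highest in neutrophil-like cells (808 ± 131 CPM), with 194.5 ± 30.8 in C1q macrophage-like cells. Ccr8, the receptor of mouse Ccl8, was highest in lymphoid cluster 22 (64.0 ± 34.55) and CD4 T-like cluster 5 (27.9 ± 8.61). Ccr3 and the atypical receptors Ackr1, Ackr2 and Ackr4 averaged no more than 3.15 in any of the 22 classes with at least 20 cells in each library.

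To see where ligand and receptor part within the phagocytes, C1q macrophage-like cells, dendritic cluster 16 and monocyte-like cells were clustered again, without the 5 genes. These subclusters were drawn after values had been seen, so their levels are a description with no test. Ccr2 averaged 950 CPM in subcluster 2 (324 cells with monocyte markers), 344 in subcluster 3 (283 cells led by Cxcl2 and with Il1b), 309 in subcluster 4 (245 cells led by Retnla and Cxcl10) and 86.7 in subcluster 1 (422 cells with C1q markers). Each library kept subcluster 2 highest and subcluster 1 lowest. Ccl12 averaged 0.850, 15.8, 80.8 and 366 over the same subclusters in that order, and Ccl8 averaged 0, 0.429, 24.5 and 163. Among these 4 of the 10 subclusters drawn, both ligands were highest where the receptor was lowest. Subcluster 10, of 46 cells, had less Ccr2 (33.2 on average) with Ccl12 at 151 and Ccl8 at 6.88, so the order does not hold over all 10.

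Ccl2 did not follow that pattern across the subclusters, with 80.1, 159, 111 and 131 CPM in the order 2, 3, 4 and 1. Ccl7 averaged 6.27, 33.5, 7.43 and 59.6. In subcluster 3, Ccl2 had 99.3 and 50.8 in the mA1 libraries, against 273 and 212 in the Con libraries. In subcluster 4 it had 86.7 and 61.1 in the mA1 libraries, against 138 and 160 in the Con libraries. Both mA1 values lay below both Con values in each of these subclusters. With 2 libraries per group only 6 arrangements exist, so such a separation can easily arise by chance. In subcluster 1 the groups overlapped, at 174 and 83.4 in the mA1 libraries, against 189 and 77.4 in the Con libraries. Subclusters 5 and 6 had Ccr2 at 392 and 274 on average and little Ccl2. Subcluster 5 held markers of plasmacytoid and of conventional dendritic cells, with the higher score for the plasmacytoid set (1.97 against 1.50). Subcluster 6 was led by Xcr1 and Itgae and scored highest for conventional dendritic cells.

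**Figure D3:**
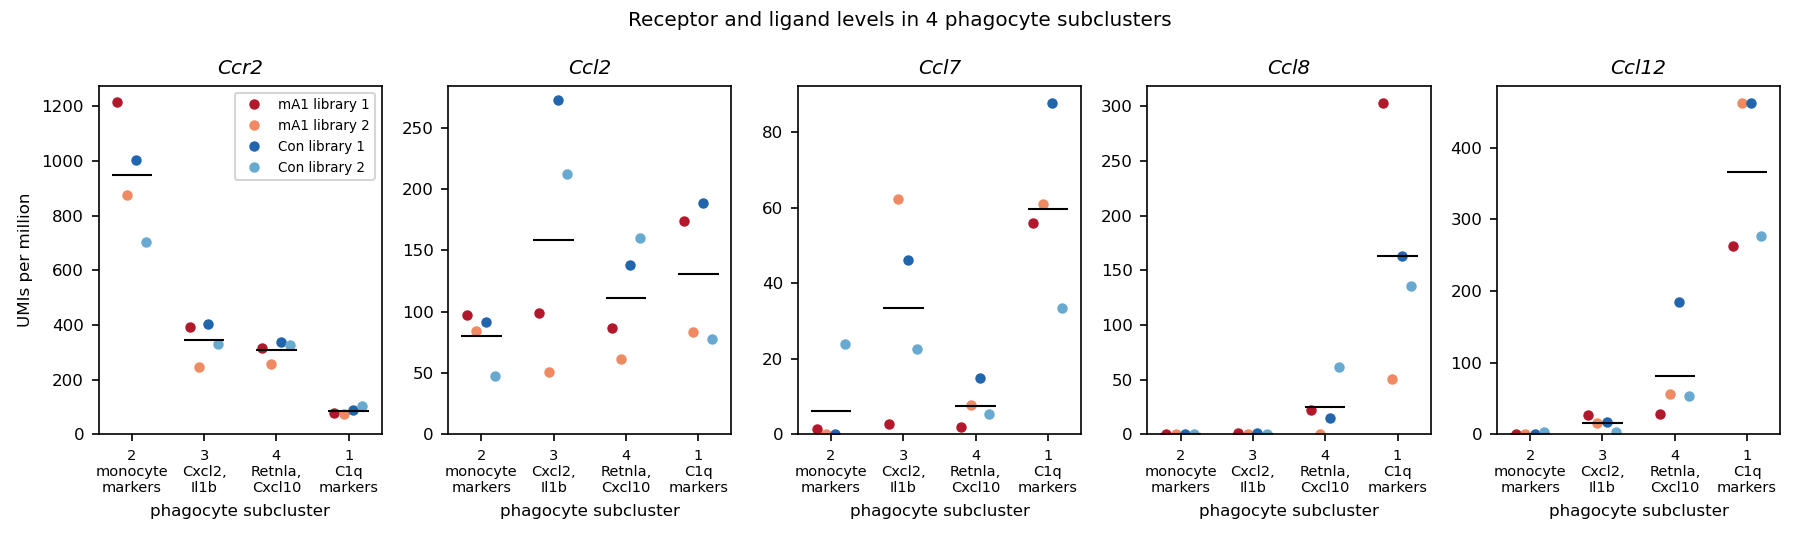
Levels of Ccr2 and the 4 ligands (y axes, CPM) in 4 phagocyte subclusters (x axis), with 1 point per library and a line at the mean. Ccr2 averages 950 in subcluster 2 and 86.7 in subcluster 1, whereas Ccl8 and Ccl12 run the other way and Ccl2 has no such order.

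Co-detection in single cells was counted over the C1q macrophage-like class and within subcluster 1. Among cells of the class with a Ccl12 UMI, 27.3% also had a Ccr2 UMI, against 49.7% of those without. Thinned to 1000 UMIs, these shares were 7.94% of 126 cells and 18.5%. Cells with a Ccl8 UMI had Ccr2 in 10.6%, against 44.97% of those without, or 2.38% of 42 cells against 17.8% after thinning. For Ccl2 the thinned shares were nearly equal, at 17.2% with and 17.1% without. Within subcluster 1, Ccr2 was found in 17.7% of cells with a Ccl12 UMI and in 20.9% of those without, or 7.14% and 7.10% after thinning, so the class-wide gap for Ccl12 was nearly absent there. For Ccl8 in subcluster 1 the shares were 12.1% with and 20.5% without, or 3.12% of 32 cells and 7.44% after thinning. Cells of a library share their tumour, so these shares carry no test.

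The ligands came from few cells. In C1q macrophage-like cells, 6 cells held 50% of the 747 Ccl8 UMIs and 1 cell of mA1 library 1 held 142 of them (19.01%). For Ccl7, 12 cells held 50% of 446 UMIs, and for Ccl2 and Ccl12, 36 cells each held 50% of 1772 and 1975 UMIs. Ccr2 was the most evenly spread, with 84 cells for 50% of 2440 UMIs. In mA1 library 2, 1 cell held 18 of the 25 Ccl8 UMIs of the class, and 2 cells held 88 and 58 of its 281 Ccl12 UMIs. Ligand levels of a library therefore rest in part on single cells.

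**Figure D4:**
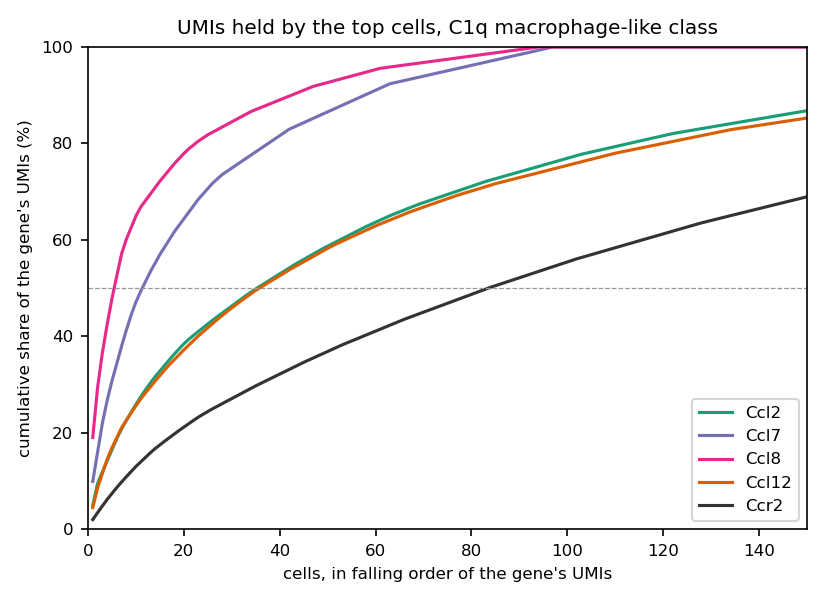
Cumulative share of each gene's UMIs (y axis, percent) over C1q macrophage-like cells of all libraries, from the cell with the most UMIs downwards (x axis). The dashed line at 50% is crossed at 6 cells for Ccl8, 12 for Ccl7, 36 for Ccl2 and Ccl12, and 84 for Ccr2.

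Over 22 classes in 4 libraries (88 sums, 15497 genes), the genes whose log2 levels were most like those of a given member were found by Pearson's r, as a description over sums that share libraries and depth. Ccl12 was most like Trim55 (r = 0.896), followed by Ccl8 (0.876), Ms4a14 (0.874), Slc36a2 (0.865) and Tmem119 (0.862). Trim55 had only 53 UMIs over these sums, just above the limit of 50, so its rank rests on few counts. Slc36a2 had 154 UMIs, Ms4a14 231, Ccl8 816 and Tmem119 1196. Ccl8 was most like Ccl12 (0.876), Olfml3 (0.865), Tmem119 (0.859), Ms4a14 (0.857) and the B cell chemokine Cxcl13 (0.817). For Ccl2 these were the high-affinity IgG receptor gene Fcgr1 (0.836), Tifab (0.830), Ifi207 (0.819), Apba1 (0.802) and Pld4 (0.801). For Ccl7 they were 4930512J16Rik (0.757), Kcnk13 (0.748), Adap2os (0.746), Mgl2 (0.742) and Dcstamp (0.739). For Ccr2 they were S100a4 (0.832), Eif4e3 (0.812), the leukotriene receptor gene Cysltr1 (0.789), Fgl2 (0.777) and Tiam1 (0.776). Among the members, Ccl2 was nearer to Ccl7 (0.691) than to Ccl12 (0.563), and Ccr2 was far from Ccl2 (0.272) and Ccl8 (0.198).

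The group comparison asked whether mA1 tumours differ from Con tumours in these genes. It used edgeR's quasi-likelihood test on UMIs summed per tumour and class (per library for small classes), with a call where the p adjusted over all genes tested (Benjamini-Hochberg) was below 0.05. Log2 fold changes are mA1 over Con with their standard errors. None of the 5 genes was called in all cells together, nor in any of 22 tests of a member within a class, and DESeq2 called none of them either. Within classes, 19 of the 22 log2 fold changes were below 0 and 6 had an unadjusted p under 0.05. The classes share tumours, so these counts are not independent. Over all genes of these classes, the share with an unadjusted p under 0.05 ran from 145 of 4798 in monocyte-like cells to 547 of 4992 in CD8 T-like cluster 11. Median log2 fold changes of all genes lay between -0.0063 and 0.0082.

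In all cells together, Ccl2 was at 17.25, 30.0, 8.02 and 5.70 CPM in the mA1 tumours, against 16.95, 38.4, 17.998 and 24.8 in the Con tumours. The 2 tumours of mA1 library 2 were the lowest and the groups overlapped (log2 fold change -0.66 ± 0.51, edgeR adjusted p = 0.525). Ccr2 was at 62.9, 59.3, 36.5 and 41.9 in the mA1 tumours, against 49.2, 63.5, 90.1 and 78.4 in the Con tumours, with the tumours of Con library 2 highest (-0.46 ± 0.21, edgeR adjusted p = 0.358). Without Con library 2 the Ccr2 value was -0.19, and the Ccl2 value was -0.04 without mA1 library 2 and -1.81 without mA1 library 1. The values of the other ligands were -0.50 ± 0.30 for Ccl7, -0.66 ± 1.01 for Ccl8 and -0.95 ± 0.63 for Ccl12. Of 13901 genes tested in this comparison, edgeR called 0% (2037 had an unadjusted p under 0.05, and DESeq2 called 319), so 0 called members is also the background.

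Sums over all cells cannot tell fewer cells of a class from less RNA per cell. C1q macrophage-like cells made up 3.2998% and 3.65% of the cells of the mA1 libraries, against 6.53% and 2.76% in the Con libraries. All 12 dissociation and immediate early genes (such as Fos and Egr1, which respond to tissue handling) had log2 fold changes below 0 in all cells, with a median of -0.43 beside -0.02 for all genes, and none was called. Their part in the values of the chemokine genes was not tested.

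Within C1q macrophage-like cells, Ccl2 was at 160, 158, 106 and 30.1 CPM in the mA1 tumours, against 136, 218, 189 and 203 in the Con tumours. The groups overlapped through the Con tumour at 136, and the other Con tumours lay above all mA1 tumours (log2 fold change -0.71 ± 0.45, edgeR adjusted p = 1.00). Ccl12 had 172, 102, 307 and 51.2 in the mA1 tumours, against 277, 249, 153 and 49.2 in the Con tumours (-0.26 ± 0.72). Ccl8 had 45.8, 114, 28.1 and 4.45 in the mA1 tumours, against 22.1, 87.0, 137 and 1.93 in the Con tumours (-0.20 ± 1.06). For Ccl12 and Ccl8, tumours within each group differed more from each other than the group means did. Ccl7 had a log2 fold change of -0.65 ± 0.82.

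Ccr2 in C1q macrophage-like cells had 234, 238, 178 and 268 CPM in the mA1 tumours, against 187, 225, 332 and 215 in the Con tumours. The ranges overlapped widely (log2 fold change -0.02 ± 0.15). Of 7353 genes tested in the class, edgeR called 0% (302 at an unadjusted p under 0.05, and 1 by DESeq2). As a measure added after the data were seen, the thinned share of these cells with a Ccl2 UMI was 9.32 ± 6.38% in mA1 tumours and 9.22 ± 3.28% in Con tumours (n = 4 each, exact permutation p = 1). For Ccl12 it was 10.7 ± 5.58% in mA1 tumours and 11.5 ± 4.70% in Con tumours (exact permutation p = 0.8286).

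**Figure D5:**
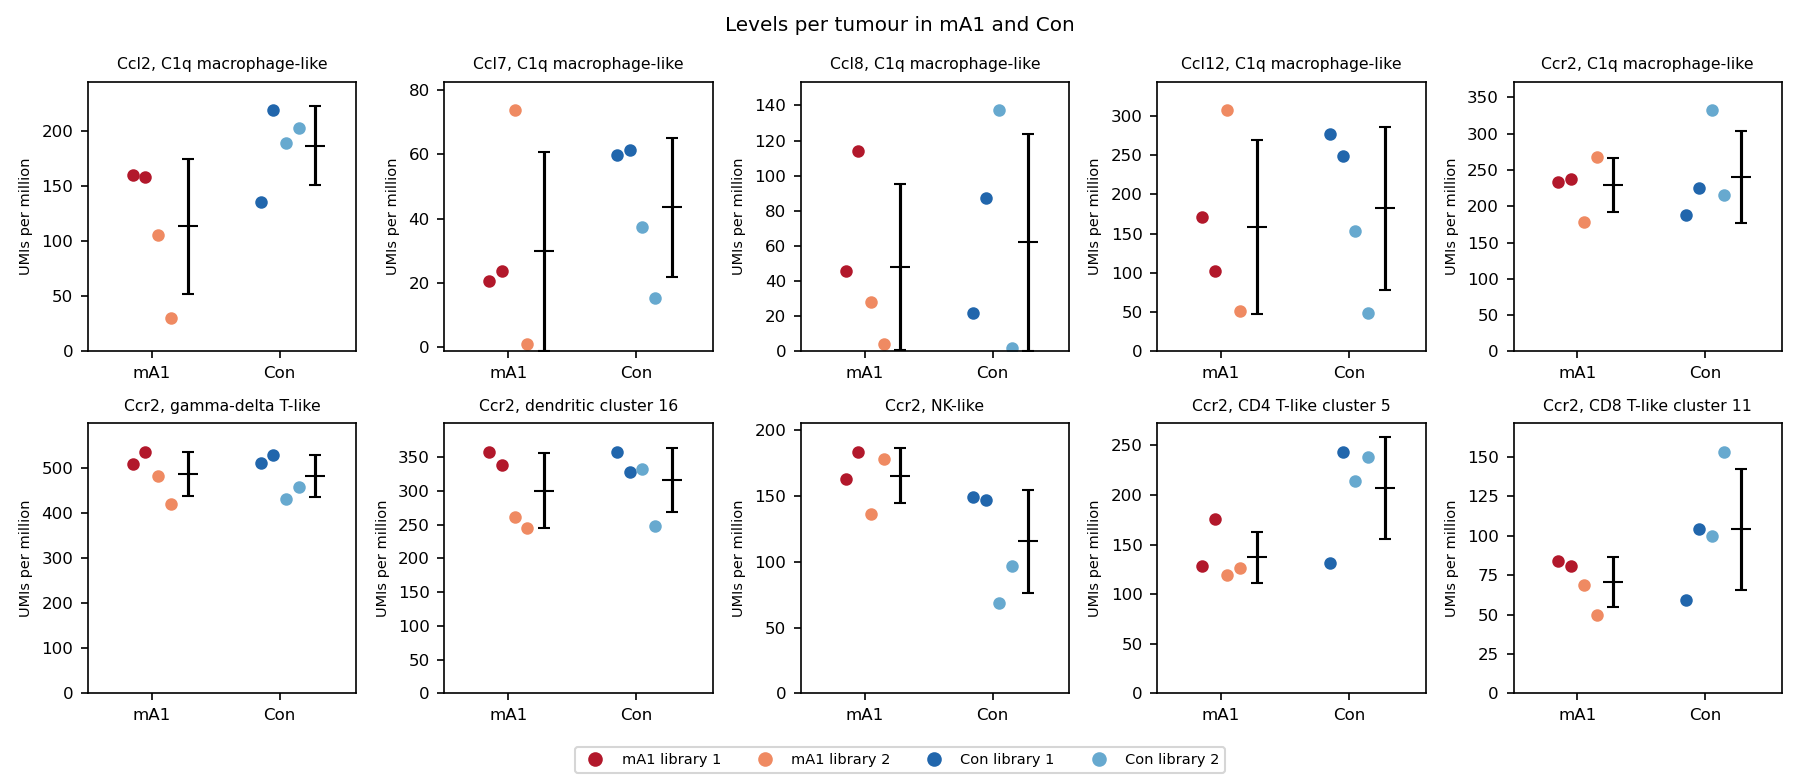
Level per tumour (y axes, CPM) of the 5 genes in C1q macrophage-like cells (upper row) and of Ccr2 in 5 other classes (lower row), with mA1 left of Con and black bars for mean ± SD over 4 tumours. The groups overlap in every panel. In NK-like cells 3 of 4 mA1 tumours lie above all Con tumours, and in CD4 T-like cluster 5 3 of 4 Con tumours lie above all mA1 tumours.

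In monocyte-like cells, the class with the highest Ccr2, the receptor had a log2 fold change of 0.27 ± 0.18 and Ccl2 one of -0.34 ± 0.27 (libraries as samples, n = 2 per group; edgeR called 0.0208% of 4798 genes). Both had an edgeR adjusted p of 1.00. Monocyte-like cells made up 1.93%, 2.47%, 1.57% and 0.721% of the tagged cells of the mA1 tumours, against 1.33%, 1.79%, 0.917% and 1.63% in the Con tumours. The means, 1.67 ± 0.734% in mA1 and 1.42 ± 0.384% in Con tumours, differed by 0.256 percentage points (exact permutation over 70 arrangements, two-sided p = 0.543). Without mA1 library 1 the difference was -0.269. Neutrophil markers in monocyte-like cells ran from 70.8 to 2570 CPM in sum in mA1 tumours and from 114 to 4324 in Con tumours, and their part in these values was not tested.

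Gamma-delta T-like cells, the class second for Ccr2, had the receptor at 509, 535, 483 and 420 CPM in the mA1 tumours, against 513, 530, 431 and 458 in the Con tumours. The log2 fold change there was 0.04 ± 0.12 (edgeR called 0.0703% of 4269 genes). In dendritic cluster 16 it was -0.06 ± 0.13 (0% of 6424 genes called, 398 at an unadjusted p under 0.05, and 0 by DESeq2). Both groups overlapped in each of these classes.

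NK-like cells had Ccr2 at 163, 183, 137 and 179 CPM in the mA1 tumours, against 149, 147, 69.1 and 97.1 in the Con tumours. The low values were those of Con library 2, and the groups overlapped (log2 fold change 0.73 ± 0.24, edgeR adjusted p = 0.306; 0.273% of 5870 genes called). Without Con library 2 the value was 0.18. Without Con library 1 it was 1.16 and was called (edgeR adjusted p = 3.70e-06), among 152 called of 6752 genes. That fit leaves only the Con library with Xist, so group and Xist cannot be told apart in it. Without the low-count filter Ccr2 was called too (0.69, edgeR adjusted p = 0.00372), among 34 called of 14989 genes. Genes of the chosen lists that were called in NK-like cells were the chemokine Ccl3 (-0.82 ± 0.12) and the immediate early genes Fos (-0.82 ± 0.13) and Egr1 (-1.15 ± 0.22).

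CD4 T-like cluster 5 had Ccr2 at 128, 175.5, 119 and 126 CPM in the mA1 tumours, against 132, 243, 215 and 238 in the Con tumours. Con tumour 1 of library 1 lay among the mA1 tumours, and the other 3 Con tumours lay above all mA1 tumours (log2 fold change -0.59 ± 0.16, edgeR adjusted p = 0.359; 0% of 6171 genes called, 448 at an unadjusted p under 0.05, and 2 by DESeq2). Without the low-count filter this was called (-0.60, edgeR adjusted p = 0.0132), among 26 called of 15753 genes. Ccr2 was likewise called without Con library 1 (-0.64, edgeR adjusted p = 0.026), among 59 called of 6744 genes. The latter fit leaves only the Con library with Xist, so group and Xist cannot be told apart in it. Ccr2 in CD8 T-like cluster 11 had 83.9, 80.5, 68.7 and 49.4 in the mA1 tumours, against 59.4, 104, 99.985 and 153 in the Con tumours (-0.50 ± 0.20, adjusted p = 0.351; 0.0401% of 4992 genes called). Whether Ccr2 differs between groups by another amount in NK-like than in T-like cells was not tested.

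Ccl2 outside the C1q macrophage-like cells had log2 fold changes below 0 in each class tested, without a call. In macrophage cluster 7, led by Ccl17 and Mmp12, it had 5.65, 9.49, 2.90 and 6.71 CPM in the mA1 tumours, against 12.03, 14.1, 31.5 and 9.55 in the Con tumours. The highest mA1 tumour lay just under the lowest Con tumour, so the groups did not overlap (-1.26 ± 0.38, edgeR adjusted p = 0.463; 0.0567% of 8822 genes called). In macrophage cluster 10 the log2 fold change was -0.25 ± 0.76 (0% of 8209 genes called, 410 at an unadjusted p under 0.05, and 6 by DESeq2), in proliferating cluster 9 -0.41 ± 0.59 (0% of 9267, 628 at an unadjusted p under 0.05, and 9 by DESeq2) and in alveolar macrophage-like cells -0.57 ± 0.32 (0.0292% of 10290). Ccr2, at low levels in these cells, had -0.51 ± 0.31, -0.86 ± 0.38, -0.67 ± 0.62 and -0.70 ± 0.25 in macrophage clusters 7 and 10, proliferating cluster 9 and alveolar macrophage-like cells. Of 10 classical monocyte genes, 2 were tested in each of these 4 classes and both had log2 fold changes below 0 without a call, with medians of -0.64, -0.64, -0.61 and -0.50 in the same order. Other lists fell there too. Other receptors of these ligands (2 tested) had medians of -0.80, -0.81, -0.68 and -0.83. Proteases that trim CC chemokines (3 tested) had -0.21, -0.47, -0.34 and -0.34. Genes of Ccr2 signalling, by contrast, had medians of 0.03, -0.05, -0.02 and 0.03. The 8 classical monocyte markers summed to 246.5 to 694 CPM in mA1 tumours and 669 to 1093 in Con tumours in macrophage cluster 10. In alveolar macrophage-like cells 7 of 8 were detected, with F13a1 at 0, and they summed to 80.7 to 209 CPM in mA1 tumours and 52.6 to 511 in Con tumours. The part of such markers in the Ccr2 values was not tested. In lymphoid cluster 22 Ccr2 had -0.66 ± 0.33 (0% of 4388 genes called, 206 at an unadjusted p under 0.05, and 0 by DESeq2), and in mature DC-like cells -0.996 ± 0.84 (0.0205% of 4874 called), where the interferon-induced chemokine Cxcl9 was called at 4.69 ± 0.62.

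Genes around this axis, in lists chosen with earlier results known, were not called by edgeR in C1q macrophage-like cells either. Of the inducers of Ccl2 (Tnf and Il1b among them), 6 of 10 were tested and all 6 had log2 fold changes above 0, with a median of 0.27 beside 0.01 for all genes. Other CC chemokines had a median of 0.53 over 7 tested genes and interferon response genes 0.42 over 7. Genes of Ccr2 signalling had 0.03 over 11, proteases that trim CC chemokines -0.15 over 4, classical monocyte genes 0.05 over 6, and dissociation and immediate early genes -0.11 over 12. Of the genes of these lists tested in these cells, only Ier3 of the dissociation list had an unadjusted p under 0.05 (0.74 ± 0.20).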

How the data were processed

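Single-cell RNA libraries (10x 3' version 3) were measured from mA1 and Con tumours. The authors deposited 1 matrix of UMI counts per library, made with Cell Ranger 6.0.1 on mm10 per the submitters' processing notes, and the hashtag antibody counts stood in the same matrices. Barcodes with at least 500 UMIs, 250 genes and at most 15% mitochondrial UMIs were kept (7735, 3898, 7397 and 5808 in mA1 libraries 1 and 2 and Con libraries 1 and 2). Cells with both hashtags (275, 103, 271 and 186) and cells called by Scrublet (171, 31, 77 and 0, some of them also with both hashtags) were left out. Scrublet was taken not to have worked in Con library 2. Clusters (scanpy 1.11.5, 2000 variable genes, 30 components, 15 neighbours, Leiden resolution 1, seed 1) were named from marker sets, and such rebuilt names need not match those of the submitters. The 5 genes, Malat1, EGFP, Xist, Tsix, Y-linked, mitochondrial and ribosomal protein genes were left out of clustering. UMIs were summed per class and per tumour where each tumour had 20 cells, otherwise per library, and tested with edgeR 4.0.16 (TMM, filterByExpr, robust quasi-likelihood, two-sided, R 4.3.3). DESeq2 1.42.0 was an alternative. Levels are CPM of class sums, and log2 levels used a pseudocount of 1. Exact 95% intervals and the floor of 3 counts cover counting error only. Genes named were the 5 members, list genes called where a member was tested, and the 5 genes most like each member (at least 50 UMIs in all). Members and lists were chosen with earlier results of these data known. The fits were checked on simulated counts. Alternatives covered normalization, filters, unit of replication, pairing, doublets, clustering and left-out samples. Some values of the gene lists are not reported here.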

Additional observations from a re-analysis of the deposited data

Results flagged for a closer look

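In 48 groups of 4 tumours examined, 2 had a tumour far from the other 3, and chance gives about 1 in 20. Ccl8 in all cells of mA1 tumours was at 6.10 CPM in the second tumour of mA1 library 1, against 0.323 to 1.17 in the other 3. Ccr2 in CD4 T-like cluster 5 was at 175.5 CPM in the same tumour, against 119.3 to 128 in the other 3 mA1 tumours.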

How the results depend on the processing

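Over 27 log2 fold changes and 498 alternatives, 460 kept direction and call, 33 turned in sign (in 13 results) and 5 became called. Turns outside left-out samples were Ccl8 in C1q macrophage-like cells with libraries as samples (0.012), Ccl2 in monocyte-like cells without top doublet scores (0.23) and, chosen after the data were seen, without the top cell of each library (0.029), and Ccl2 in proliferating cluster 9 without top doublet scores (0.26). The cause was not tested. Leaving out a library or tumour gave -2.32 to 0.049 for Ccl8 and -1.64 to 0.51 for Ccl12 in all cells. In C1q macrophage-like cells it gave -1.48 to 0.24 for Ccl7, -1.99 to 0.50 for Ccl8, -0.83 to 0.72 for Ccl12 and -0.16 to 0.13 for Ccr2. Elsewhere it gave Ccr2 -0.28 to 0.13 in dendritic cluster 16, -0.074 to 0.17 in gamma-delta T-like cells, -1.04 to 0.053 in lymphoid cluster 22 and -1.42 to 0.31 in proliferating cluster 9. Ccl2 ran from -2.43 to 0.26 in macrophage cluster 10 and from -1.61 to 0.11 in proliferating cluster 9, and the monocyte-like share from -0.269 to 0.781 points. Ccr2 ran from 0.18 to 1.16 in NK-like cells, called without Con library 1 and without its second tumour (0.96), and from -0.77 to -0.44 in CD4 T-like cluster 5. Of 112 alternatives for levels and shares 3 moved by more than 1 SD: thinned Ccl8 in C1q macrophage-like (113) and Ccl2 in monocyte-like cells (57.5 CPM), and Ccr2 in C1q macrophage-like cells at resolution 2 (186). Library numbers 1 and 2 are only shared numbers, and as a replicate block they changed no call of these genes (Ccl2 -0.87 and Ccr2 -0.47 in all cells, Ccl2 -0.78 in C1q macrophage-like cells). Without the low-count filter, Ccr2 was also called in epithelial-like cells (-6.25), where 16 cells had a UMI, so that this fitted value is no bound. Counts of called genes depended on settings: in all cells 0 became 319 with DESeq2, 3 with the block and 2842 without Con library 1, which leaves only the Con library with Xist. In NK-like cells 16 became 8 with DESeq2, 34 without the filter and 152 without Con library 1. In C1q macrophage-like cells 0 became 27 without the filter, and in alveolar macrophage-like cells 3 became 42 with DESeq2. With 2 libraries and 4 tumours per group, and ligands held by few cells, small differences could not be seen at this depth.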
